A study of Saccharomyces cerevisiae with 24 samples.

Results

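The transcripts of 10 genes of ergosterol synthesis in Saccharomyces cerevisiae were followed across 3 ways of isolating RNA and a heat shock. They were taken by name from a table of 6685 transcripts, all 10 were found, and all 10 were among the 6137 transcripts abundant enough to be tested, with a mean of at least 1 TPM in some group (TPM is the abundance of a transcript relative to its library, corrected for transcript length). The cells were the haploid laboratory strain BY4741, of the S288c background, with deletions of his3, leu2, met15 and ura3 in every group. Cultures were grown in synthetic complete medium at 30 °C and sampled (unstressed). The rest of each culture was then brought to 37 °C for 20 min by adding hot medium (heat shock). There were 4 biological replicates, and at each time 3 identical samples of a culture were taken, 1 for each isolation method, which gave 6 sample types and 24 polyA-selected libraries. "Phenol" is extraction with hot acid phenol and detergent followed by a column cleanup, "RNeasy" is a silica column kit, and "Direct-zol" is a kit based on guanidinium and phenol. For both kits the cells were broken by beating with glass beads in the lysis buffer of the kit. Cells for Phenol were lysed by the hot phenol and detergent, so the way of breaking cells also separates Phenol from the kits. The 3 methods therefore saw the same 4 cultures, and differences between methods within a treatment are technical.

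Ergosterol is the sterol of fungal membranes and takes the place that cholesterol has in animals. Yeast builds it from acetyl-CoA through mevalonate, farnesyl pyrophosphate, squalene and lanosterol, mostly at the endoplasmic reticulum, and the late steps need oxygen, heme and iron. The pathway is the target of statins, terbinafine and azole antifungals, and its genes are known to respond to sterol levels through the transcription factors Upc2 and Ecm22, which bind a sterol regulatory element in many ERG promoters.

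The 10 genes fall into 4 stretches of the pathway, and their positions are those of the RefSeq annotation of S288c (build R64). HMG1 (YML075C, chromosome XIII, 115734 to 118898) and HMG2 (YLR450W, chromosome XII, 1032627 to 1035764) encode the paired HMG-CoA reductases, which make mevalonate and set the pace of the early pathway. ERG9 (YHR190W, chromosome VIII, 484845 to 486179) encodes squalene synthase, the first enzyme that commits farnesyl pyrophosphate to sterols, and ERG1 (YGR175C, chromosome VII, 846933 to 848423) encodes squalene epoxidase, the terbinafine target. ERG11 (YHR007C, chromosome VIII, 120091 to 121683), the azole target, is the cytochrome that demethylates lanosterol, and ERG25 (YGR060W, chromosome VII, 610564 to 611493) is the oxidase that starts removal of the next methyl groups. ERG6 (YML008C, chromosome XIII, 251839 to 252990) methylates the side chain, ERG2 (YMR202W, chromosome XIII, 667537 to 668205) moves a double bond in the ring, ERG3 (YLR056W, chromosome XII, 253861 to 254958) adds one to the ring, and ERG5 (YMR015C, chromosome XIII, 300869 to 302485) adds one to the side chain. Each gene has a single coding exon, none overlaps another annotated gene, and none shares a 50-base stretch, the length of a read, with another ORF. That includes HMG1 and HMG2, whose proteins of 1054 and 1045 residues were 62.9% identical over 1033 aligned residues, 47.0% in the first part of Hmg1 and 79.5% in the last.

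The sequence upstream of the start codons is shown because it holds the elements that sterol and stress factors are known to bind. Letters were searched on both strands. The sterol element TCGTATA was matched in 1 of the 10 windows that reach 250 bases upstream and 50 downstream of the start codon, against 4.1% of 6007 such windows in the genome. In a window reaching 600 bases upstream, chosen after the shorter one had been seen, it was matched upstream of 5 of the 10, against 8.9% of 6005, with 2 matches each for ERG25 and ERG3. The stretches below run 5′ to 3′ on the strand of the gene, with the motif in capitals (TATACGA is the element on the other strand), and all lay between annotated genes.
ERG1, 382 bases upstream: gtagcgggcctTCGTATAgctcggccgag
ERG25, 483 bases upstream: actgcctccctTCGTATAcgggacacaga
ERG25, 463 bases upstream: ggacacagagaTCGTATAcggtaaacgac
ERG6, 432 bases upstream: agccccgatctTCGTATAtggtacctcgt
ERG2, 185 bases upstream: aaccacggcccTCGTATAagccgcaagga
ERG3, 326 bases upstream: caaccggggtgTATACGAggccgatggct
ERG3, 286 bases upstream: aaaattcaggcTCGTATAagtggcacaat

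The stress element CCCCT, which the general stress factors Msn2 and Msn4 bind, was matched in the longer window of only ERG9 and ERG5 among the 10, against 41.8% of 6005. In the shorter window it was matched for 1 of the 10, against 21.6% of 6007.
ERG9, 87 bases upstream: aaagttaggacAGGGGcaaagaataag
ERG5, 476 bases upstream: cacaccccacaCCCCTggattttttaa

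A pair of inverted heat shock units, GAANNTTC, was matched for 0 of the 10 in the longer window, against 24.4% of windows. No match says only that these letters were not found in the window. In the values below, the 5 members with a TCGTATA match were among the 8 that fell in heat shock with every method, HMG1, HMG2 and ERG11 fell with no match, and the 2 with a CCCCT match did not fall with any. The other 14 pathway genes, described further on, did not show this split. TCGTATA was matched for 3 of them, ERG13, ERG8 and ERG28, and ERG28 was the 1 that rose in heat. CCCCT was matched for 6 of the 14, among them NCP1, ERG7 and MVD1, which had some of the steepest falls. The CCCCT matches of MVD1, ERG8 and ERG27 lay in the ORF of a neighbouring gene. GAANNTTC was matched for 3 of the 14: MVD1 and ERG13, which fell, and ERG28, with the ERG13 match in a neighbouring ORF. These are descriptions, without a test.

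**Figure D1:**
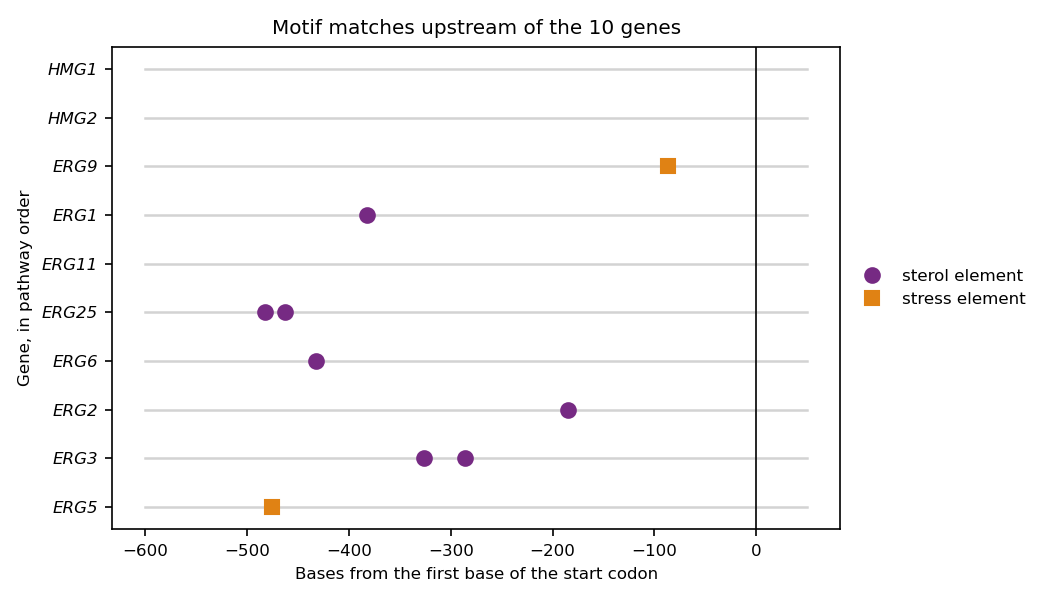
Matches of the sterol element (circles, 7 matches upstream of 5 genes) and of the stress element (squares, 2 matches upstream of 2 genes) by distance in bases from the first base of the start codon, for the 10 genes in pathway order. Grey lines span the window of 600 bases before to 50 after the start codon, and the 3 genes HMG1, HMG2 and ERG11 show no match.

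Abundances below are scaled TPM. TPM corrects for transcript length, so that levels of different genes can be compared, and here each library was divided by a factor, between 0.776 and 1.27, that brought the bulk of transcripts to the same level. TPM keeps no read depth, and no counts were used, so no counting error can be given for single values. Each difference is a log2 fold change from 1 limma fit across all 6137 transcripts, on log2(scaled TPM + 1), and a transcript was called changed where its Benjamini-Hochberg adjusted p was under 0.01. The labels held in the libraries. HSP104, a heat shock disaggregase, rose from at most 228 unstressed to at least 2351 after heat shock, the deleted LEU2, MET17 and URA3 stayed at 0.110 or below, and the mating type a gene STE2 was at 225 or above while its alpha counterpart STE3 stayed at 13.5 or below.

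In unstressed cells ERG25, ERG3 and ERG2 were among the most abundant of the 10, and the reductases and ERG5 were the least abundant. With Phenol the mean levels ran from 777 for ERG3, 758 for ERG25 and 736 for ERG2 through 556 for ERG11, 393 for ERG1, 384 for ERG6, 212 for ERG9 and 129.7 for ERG5 down to 95.5 for HMG2 and 89.5 for HMG1. Neighbours whose 4 libraries overlapped in range were ERG3 with ERG25, ERG25 with ERG2, ERG1 with ERG6, and HMG2 with HMG1. Over all 24 libraries the mean level of ERG25 lay above 94.1% of the tested transcripts and that of HMG1 above 52.2%. The 10 transcripts together summed to 4131 ± 353 scaled TPM with Phenol, 2660 ± 66.1 with RNeasy and 3072 ± 69.6 with Direct-zol (SD, n = 4). After heat shock the sums were 2557 ± 191, 1531 ± 107 and 1781 ± 153. As a share of the deposited TPM, the 10 held 0.345%, 0.273% and 0.274% of the unstressed libraries and 0.247%, 0.189% and 0.196% of the heat-shocked ones, in the same order of methods.

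**Figure D2:**
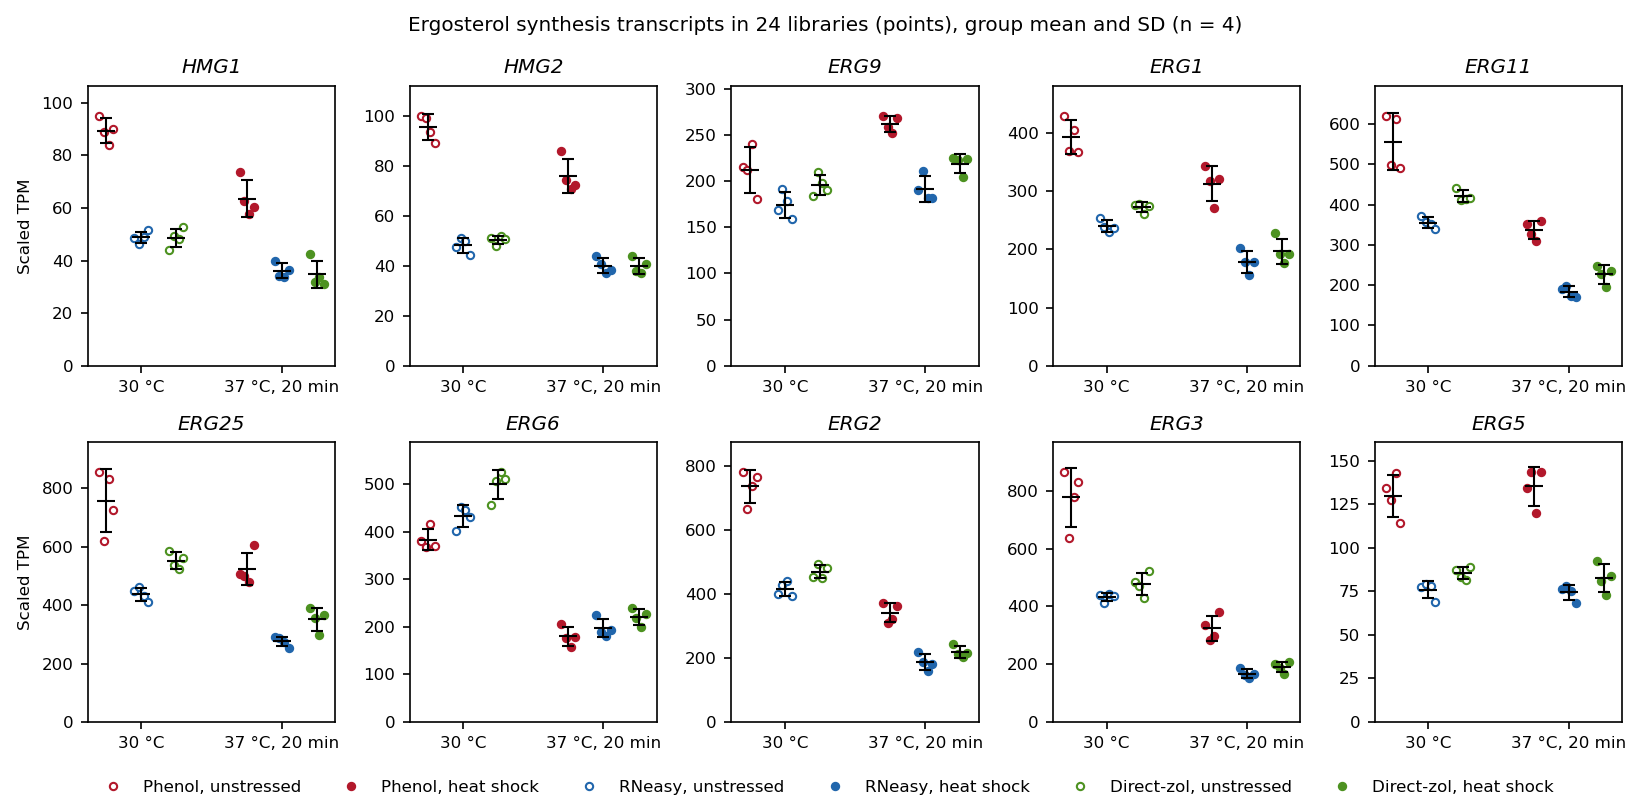
Scaled TPM (vertical axis, from 0) of each of the 10 transcripts in each of the 24 libraries (points), by temperature (horizontal axis) and isolation method (colour), with the mean and SD of 4 libraries in black. ERG3, ERG2 and ERG6 drop at 37 °C with every method, ERG5 does not, and the Phenol points stand above those of both kits for most genes but not for ERG6.

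The first comparison asked how the pathway responded to heat shock. Of the 10 transcripts, 8 fell with each of the 3 methods: HMG1, HMG2, ERG1, ERG11, ERG25, ERG6, ERG2 and ERG3. ERG9 rose with Phenol and was not called with the kits, and ERG5 was called with none. Across all transcripts, 32.8% were called lower and 31.1% higher with Phenol, 32.1% and 31.3% with RNeasy, and 32.1% and 31.7% with Direct-zol. On TPM as deposited the all-transcript calls were 2457 higher of 3917, 2668 of 4006 and 2815 of 4080, and the members were 5 lower and 2 higher with each method. The median log2 fold change of the 10 was -0.51, -0.55 and -0.57 with the 3 methods, beside medians of -0.00, 0.01 and 0.02 over all tested transcripts. The 3 values are not independent, since the same cultures were used. The fit also counts the 3 splits of a culture as separate libraries, so the adjusted p of a heat response can be too small. In bulk cultures a lower level per cell and fewer cells that carry the transcript cannot be told apart, and neither shows the absolute amount, since TPM are relative.

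The steepest falls were in the late pathway, in ERG3, ERG2 and ERG6. ERG3, the ring desaturase, had 864, 636, 777 and 831 scaled TPM in Phenol replicates 1 to 4 unstressed and 337, 284, 299 and 379.9 after heat shock. With RNeasy it went from 439, 413, 444 and 436 to 187, 163, 151 and 166, and with Direct-zol from 484, 469.8, 430.0 and 522 to 199.5, 186, 167 and 208. Every heat-shocked library was below every unstressed library of its method. The log2 fold changes were -1.26, -1.37 and -1.32 (SE 0.076, adjusted p = 1.8e-11, 4.79e-12 and 8.27e-12) with Phenol, RNeasy and Direct-zol. No other member had a change as large.

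ERG2, the isomerase that acts before Erg3, went from 781, 664, 737 and 764 to 372, 311, 321 and 362 with Phenol. Its kit libraries went from a range of 393 to 439 down to 159.9 to 219 with RNeasy, and from 451 to 492 down to 202 to 245 with Direct-zol. No groups overlapped, and the log2 fold changes were -1.11, -1.15 and -1.10 (adjusted p = 2.38e-10, 1.3e-10 and 2.53e-10).

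ERG6, the side-chain methyltransferase, went from 381, 369, 416 and 370.2 to 206, 177, 159 and 179.6 with Phenol. With RNeasy it went from 403, 452, 447 and 432 to 224, 189, 181 and 194, and with Direct-zol from 456, 506, 526 and 512 to 240.0, 218, 199.8 and 227. Again no groups overlapped. The log2 fold changes were -1.09, -1.14 and -1.17 (adjusted p = 5.65e-10, 3.03e-10 and 1.88e-10).

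ERG5, the last desaturase before the final reduction, did not follow its neighbours. It had 134, 127, 143 and 114 scaled TPM unstressed and 135, 143, 119.9 and 143 after heat shock with Phenol. With RNeasy the values were 77.7, 79.3, 78.1 and 69.0 against 76.1, 78.1, 75.0 and 68.5, and with Direct-zol 87.4, 83.5, 81.6 and 89.2 against 92.6, 81.1, 72.9 and 83.8. All 3 pairs of groups overlapped. The log2 differences were 0.06 (95% interval -0.10 to 0.22), -0.03 (-0.19 to 0.13) and -0.05 (-0.21 to 0.11), so falls of the size seen for ERG2, ERG3 and ERG6 lay outside the intervals. When TPM were left as deposited, where the median of all transcripts stood at 0.19, 0.26 and 0.29, ERG5 was called higher with all 3 methods, by 0.27, 0.23 and 0.25, so its lack of a change holds only relative to the bulk of transcripts. Without replicate 4 the Phenol value was -0.03.

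In the middle of the pathway ERG11 and ERG25 fell by less. ERG11, the azole target, had 620.0, 497, 613 and 492 scaled TPM unstressed and 351, 327, 311 and 359.5 after heat shock with Phenol. With RNeasy it went from 371, 356, 352 and 338 to 190.1, 199, 173 and 172, and with Direct-zol from 442, 411, 414 and 416 to 248, 227, 195 and 236. The groups did not overlap, and the log2 fold changes were -0.71, -0.95 and -0.90 (SE 0.078, adjusted p = 9.84e-08, 1.58e-09 and 3.58e-09).

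ERG25, the methyl sterol oxidase, had the highest mean of the 10 in all 3 heat-shocked sample types. It went from 855, 621, 830.4 and 726 to 506, 501, 480.4 and 605 with Phenol, from a range of 409 to 460.3 down to 254 to 289.7 with RNeasy, and from 523 to 587 down to 297 to 389.6 with Direct-zol. The log2 fold changes were -0.53, -0.66 and -0.66 (adjusted p = 5.21e-05, 3.34e-06 and 3.93e-06). The groups did not overlap with any method, though the highest heat-shocked Phenol library, at 605, came close to the lowest unstressed one, at 621. With quantile normalization the Phenol value was 0.03 and was not called.

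Of the enzymes around squalene, ERG1 fell slightly and ERG9 did not fall. ERG1, the epoxidase, had 429, 369.6, 404 and 368 unstressed against 343, 317, 271 and 321 with Phenol. Its RNeasy range went from 229 to 255 down to 156 to 202, and its Direct-zol range from 260.0 to 278 down to 177 to 227. The groups did not overlap, with log2 fold changes of -0.33, -0.43 and -0.47 (adjusted p = 7.01e-05, 3.01e-06 and 8.46e-07). With quantile normalization the Phenol value was -0.12 and was not called (adjusted p = 0.0563).

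ERG9, squalene synthase, had 216, 212, 241 and 181 scaled TPM unstressed and 271, 259, 252 and 268 after heat shock with Phenol, with no overlap. With RNeasy it had 169, 192, 179 and 159 against 191, 212, 182 and 182, and with Direct-zol 184, 210.4, 198 and 190.5 against 226, 223, 204 and 224. In all 12 pairs of libraries of the same number and method the heat-shocked one was higher, but the kit groups overlapped. The 12 pairs are splits of 4 cultures and are not independent. The log2 differences were 0.31 (adjusted p = 0.000684), 0.14 (adjusted p = 0.0988) and 0.16 (adjusted p = 0.0514). The Phenol call was lost without replicate 4, at 0.23 (adjusted p = 0.0209), and in a fit of the 2 Phenol groups alone (adjusted p = 0.035). Without scaling, on the deposited TPM, ERG9 was called higher with RNeasy, by 0.40, and Direct-zol, by 0.46, as it was with quantile normalization, by 0.33 with each kit.

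The reductases at the head of the pathway fell by the smallest amounts among those called lower with all methods, together with ERG1. HMG1 had 95.01, 89.0, 83.9 and 90.0 scaled TPM unstressed and 73.5, 62.7, 57.7 and 60.3 after heat shock with Phenol, and its log2 fold changes were -0.49, -0.43 and -0.48 (adjusted p = 1.78e-05, 8.11e-05 and 2.37e-05). HMG2 had 99.98, 99.2, 93.4 and 89.1 against 86.0, 74.3, 70.8 and 72.4, with log2 fold changes of -0.33, -0.26 and -0.33 (adjusted p = 8.42e-05, 0.000854 and 8.45e-05). No groups of either gene overlapped, though for HMG2 with RNeasy the ranges met closely, at 44.2 to 51.2 and 37.2 to 44.1. That call was lost without replicate 2, at -0.24 (adjusted p = 0.0101), and without replicate 3, at -0.21 (adjusted p = 0.0197). Unscaled, HMG1, HMG2 and ERG1 were called with no method, with values between -0.29 and -0.00, while ERG11, ERG25, ERG6, ERG2 and ERG3 stayed called lower with all 3.

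The ratio of HMG1 to HMG2 within a library does not depend on the scaling. It averaged 0.939 ± 0.0538, 1.02 ± 0.108 and 0.965 ± 0.0836 in unstressed Phenol, RNeasy and Direct-zol libraries and 0.836 ± 0.0168, 0.901 ± 0.0497 and 0.867 ± 0.0863 after heat shock (SD, n = 4). The ranges were apart with Phenol (0.897 to 1.01 against 0.815 to 0.855) and overlapped with both kits. Between libraries of the same number the ratio was lower after heat shock in 4 of 4 pairs with Phenol, 4 of 4 with RNeasy and 3 of 4 with Direct-zol, where replicate 1 went from 0.862 to 0.965.

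**Figure D3:**
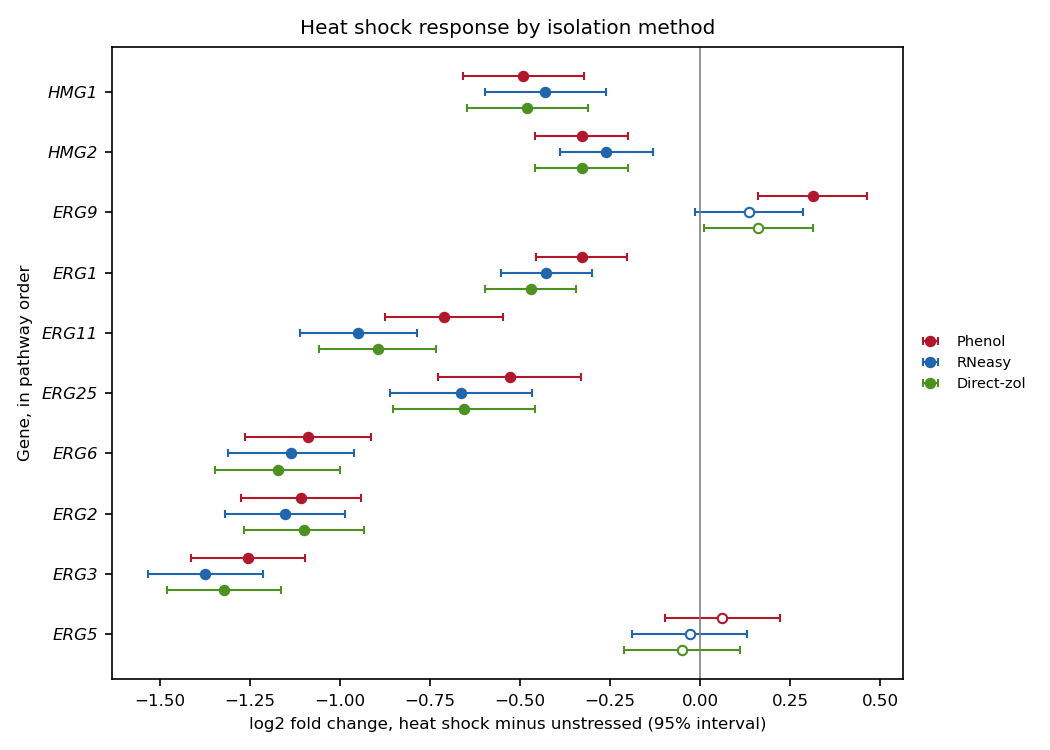
log2 fold change after heat shock (horizontal axis, heat shock minus unstressed, with 95% interval) of the 10 genes in pathway order, for Phenol, RNeasy and Direct-zol. Filled points were called at an adjusted p under 0.01: 8 genes lie below 0 with every method, from -0.26 for HMG2 to -1.37 for ERG3, and ERG9 and ERG5 lie near or above 0.

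Heat shock also changed the order of the members, each within its method. With RNeasy, ERG6, ERG9, ERG2, ERG11, ERG1 and ERG3 came to lie between 167 and 197, each overlapping its neighbour in that order, while unstressed they spanned 174 to 433. With Direct-zol the corresponding 6 lay between 190.1 and 226. The share of the 10-gene total that was ERG9 went from 5.15% to 10.3% with Phenol, from 6.55% to 12.5% with RNeasy and from 6.38% to 12.3% with Direct-zol, whereas that of ERG3 went from 18.8% to 12.7%, from 16.3% to 10.9% and from 15.5% to 10.7%.

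The heat-shocked cultures differed from each other in a way that all 3 methods recorded. Replicate 1 had the highest level of 6 of the 10 members with Phenol, 7 with RNeasy and 9 with Direct-zol, and replicate 3 had the lowest level of 8, 6 and 9. In unstressed cells replicate 1 had the highest level of 7, 2 and 2. The heat gene HSP104 ran the other way, with 2737 in replicate 1 and 4649 in replicate 3 with Phenol, 2351 and 4459 with RNeasy, and 2729 and 4686 with Direct-zol, and the replicates 2 and 4 between them. HSP26, a small heat shock protein, was also lowest in replicate 1 and highest in replicate 3 with each method. Whether these go together was not tested. Without replicate 1, 8 members were still called lower with each method, and the medians were -0.49, -0.58 and -0.65.

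The second comparison asked whether the isolation method alone changed the apparent level of the pathway, in samples of the same cultures. With Phenol against RNeasy in unstressed cells, 9 of the 10 were higher with Phenol and ERG6 was not called, beside 22.1% of all transcripts called higher and 19.8% lower. With Phenol against Direct-zol, 8 were higher, ERG6 was lower and ERG9 was not called, beside 22.9% higher and 21.6% lower. The medians of the 10 were 0.77 and 0.56, beside -0.01 and -0.02 over all transcripts. On TPM as deposited the all-transcript calls were 735 higher of 3341 and 1095 of 2759, and 8 of the 10 were higher and ERG6 lower against each kit. These 2 comparisons share the Phenol libraries, so their values stand side by side and the second is not a repeat of the first. The paper reported the highest RNA integrity with Phenol and the lowest with Direct-zol. With integrity in its model, the paper lost most of its calls between Phenol and Direct-zol and kept most of those between Phenol and RNeasy. The fit here has no term for integrity, and its part in the method differences, unstressed or heat-shocked, was not tested.

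The largest differences were those of the reductases, which are anchored in the membrane of the endoplasmic reticulum. HMG2 had 99.98, 99.2, 93.4 and 89.1 scaled TPM with Phenol, 47.5, 51.2, 49.9 and 44.2 with RNeasy, and 51.0, 47.9, 51.8 and 50.9 with Direct-zol. HMG1 had 83.9 to 95.01 with Phenol, 46.4 to 51.4 with RNeasy and 43.9 to 52.6 with Direct-zol. Phenol libraries of both genes were all above the kit libraries, by a log2 difference of 0.97 and 0.91 for HMG2 (adjusted p = 2.95e-09 and 3.63e-09) and 0.86 and 0.87 for HMG1 (adjusted p = 7.65e-08 and 7.52e-08).

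The late enzymes ERG3, ERG2 and ERG5 followed. Their log2 differences from RNeasy were 0.83, 0.83 and 0.76 and from Direct-zol 0.70, 0.65 and 0.59, with adjusted p between 5.63e-08 and 3.23e-06. ERG5, not called in heat shock with scaled TPM, had 114 to 143 scaled TPM with Phenol, 69.0 to 79.3 with RNeasy and 81.6 to 89.2 with Direct-zol, with no overlap between Phenol and either kit. The 95% intervals of these differences, 0.60 to 0.92 and 0.43 to 0.75, lay above that of its heat difference with any method.

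ERG25, ERG1 and ERG11 were higher by 0.78, 0.71 and 0.64 than with RNeasy and by 0.45, 0.52 and 0.39 than with Direct-zol, with no overlap of groups. The smallest of these, ERG11 against Direct-zol, had an adjusted p of 0.000316. For ERG25 against Direct-zol the call was lost without replicate 1, at 0.41 (adjusted p = 0.0101), and with quantile normalization both ERG25 and ERG11 against Direct-zol fell to 0.21 (adjusted p = 0.0311 and 0.0108).

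ERG9 and ERG6 stood apart from the other 8. ERG9 had 216, 212, 241 and 181 scaled TPM with Phenol against 169, 192, 179 and 159 with RNeasy, a difference of 0.28 (adjusted p = 0.00301) between groups that overlapped. That call was lost without replicate 1, at 0.25 (adjusted p = 0.0347), without replicate 3, at 0.23 (adjusted p = 0.0213), in a fit of the 2 groups alone and with quantile normalization, and on TPM as deposited the value was -0.02. Against Direct-zol the difference was 0.11 (adjusted p = 0.204).

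ERG6 had 381, 369, 416 and 370.2 scaled TPM with Phenol, 403, 452, 447 and 432 with RNeasy, and 456, 506, 526 and 512 with Direct-zol. All Phenol libraries were below all Direct-zol libraries, by a log2 difference of -0.38 (adjusted p = 0.000766), which was no longer called without replicate 2, at -0.35 (adjusted p = 0.017), or without replicate 4, at -0.35 (adjusted p = 0.0188). Against RNeasy the difference was -0.17 (95% interval -0.35 to -0.00, adjusted p = 0.0851). There the groups overlapped, and ERG6 was called lower on TPM as deposited, at -0.47, with quantile normalization, at -0.46, and with the replicate block within treatment, at -0.17. ERG6 was the rank-6 transcript of the 10 with Phenol and the rank-2 transcript with either kit, and made up 9.33% of the 10-gene total with Phenol but 16.3% with each kit.

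After heat shock the same 9 genes other than ERG6 were higher with Phenol than with RNeasy, by 0.45 for ERG9 and 0.80 to 0.95 for the others, beside 22.6% of transcripts called higher and 21.1% lower. HMG1, at 0.80, was the lowest of these others, and HMG2, at 0.90, lay below ERG3 at 0.95 and ERG25 at 0.92. Against Direct-zol the 9 were also higher, by 0.26 for ERG9 and 0.57 to 0.91 for the others, beside 21.8% higher and 20.8% lower. There HMG2 and HMG1 were again the largest, at 0.91 and 0.86. ERG6 differed by -0.13 from RNeasy (adjusted p = 0.201) and by -0.30 from Direct-zol (adjusted p = 0.00561). The Direct-zol calls of ERG9 (adjusted p = 0.00484) and ERG6 were weak. ERG9 lost its call without any 1 of the 4 replicates, with adjusted p between 0.015 and 0.0295, and ERG6 lost it without replicate 2, 3 or 4, with adjusted p between 0.0128 and 0.0529 and values of -0.29, -0.28 and -0.28. Without replicates 1 to 4 in turn, ERG9 was at 0.26, 0.28, 0.25 and 0.26. Unscaled, the all-transcript calls were 656 higher of 3597 against RNeasy and 891 of 3095 against Direct-zol, and the members were 8 higher and ERG6 lower against each. ERG9 was then not called against RNeasy, at 0.10 (adjusted p = 0.141), or Direct-zol, at 0.07 (adjusted p = 0.326), nor with quantile normalization, at 0.18 (adjusted p = 0.0121) and 0.09 (adjusted p = 0.194). ERG6 was called lower than with RNeasy in both settings, at -0.48 and -0.38. With scaled TPM the median of the 10 was 0.86 against RNeasy and 0.65 against Direct-zol.

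**Figure D4:**
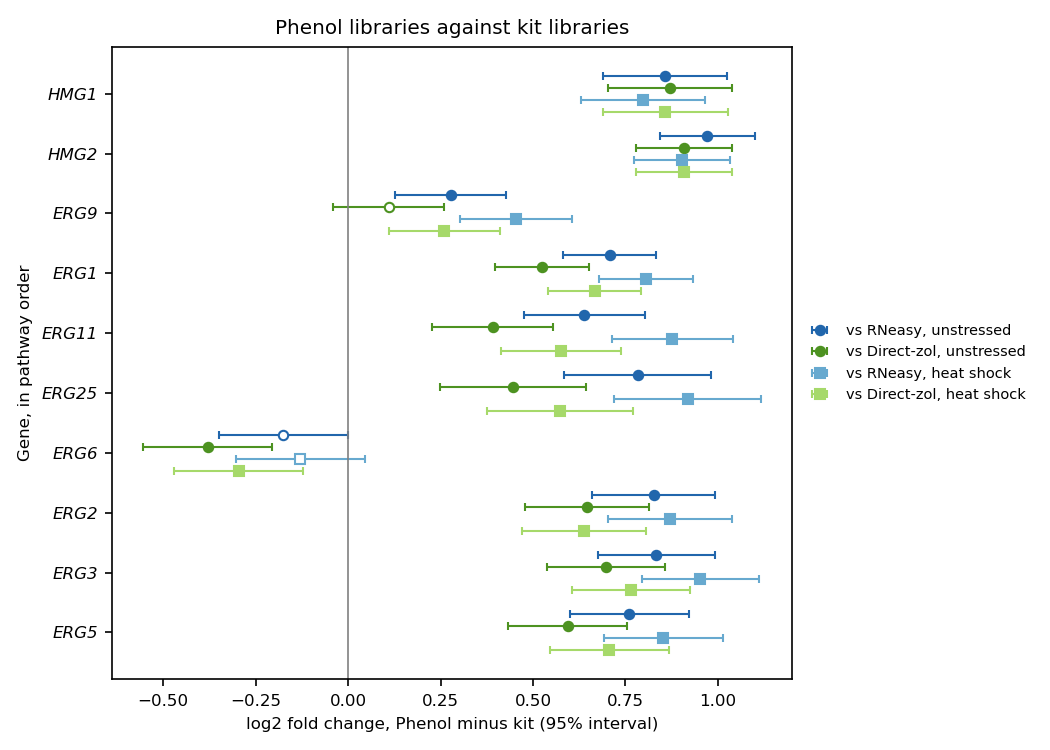
log2 difference between Phenol and each kit (horizontal axis, Phenol minus kit, with 95% interval) for the 10 genes in pathway order, in unstressed (circles) and heat-shocked cells (squares). Filled points were called at an adjusted p under 0.01: HMG2 reaches 0.97, 9 genes lie to the right of 0 in all 4 comparisons, with ERG9 nearest to 0 among them, and ERG6 lies to the left.

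The kits differed little from each other. RNeasy against Direct-zol called 0 of the 10 in unstressed and 0 in heat-shocked cells, beside 3.89% and 4.43% of all transcripts, although 7 and 6 of the 10 had an unadjusted p under 0.05, beside 1514 and 1553 of all 6137. The medians of the 10 were -0.17 and -0.18, beside -0.02 and -0.03 over all transcripts. The largest differences were those of ERG25, at -0.34 in both (adjusted p = 0.0296 and 0.0242), and of ERG11, at -0.25 and -0.30 (adjusted p = 0.0509 and 0.0178). HMG1 and HMG2 were at 0.01 and -0.06 unstressed and 0.06 and 0.00 after heat shock, with 95% intervals that together span -0.19 to 0.23. ERG11 and ERG25 were called lower with RNeasy in a fit of the 2 unstressed groups alone, and ERG6 unstressed, at -0.20, and ERG11 in heat shock, at -0.30, with the replicate block within treatment. That block called 6.55% and 6.91% of all transcripts. The unstressed kit groups did not overlap for ERG1, ERG11, ERG25, ERG6, ERG2 and ERG5, with RNeasy lower, and the heat-shocked ones for ERG25 alone. The share of all transcripts without overlap was not counted.

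The last comparison asked whether the heat response itself depended on the method. The difference between heat responses was called for 0 of the 10 and for 0% of the 6137 transcripts in each of the 3 pairs of methods, with an unadjusted p under 0.05 for 1, 0 and 0 of the 10 and for 267, 270 and 69 of all transcripts. The 1 was ERG11, whose fall was smaller with Phenol than with RNeasy by 0.24 on the log2 scale (95% interval 0.01 to 0.47, adjusted p = 0.987). For ERG9, which rose with Phenol alone by the test, the difference was 0.18 from RNeasy (-0.04 to 0.39) and 0.15 from Direct-zol (-0.06 to 0.36), so the responses were not shown to differ. Over the 10 genes the intervals of the 3 differences lay between -0.30 and 0.47, and differences of that size cannot be told from none in this fit. Variation shared by the splits of a culture cancels in this comparison but stays in the error of the fit. The intervals can therefore be too wide. With the replicate block within treatment 0 of the 10 were called as well.

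The other 14 genes of the pathway were counted in the same fits. In heat shock 11 fell with Phenol, 12 with RNeasy and 12 with Direct-zol, and 1 rose with each, with medians of -0.56, -0.65 and -0.71. Over all transcripts 32.1% to 32.8% were called lower and 31.1% to 31.7% higher. The steepest falls with Phenol were those of NCP1, the reductase that passes electrons to the pathway's cytochromes Erg11 and Erg5, at -1.38, -1.18 and -1.27, and of ERG7, lanosterol synthase, at -1.08, -1.05 and -0.9958. MVD1, the mevalonate pyrophosphate decarboxylase, fell by 1.08, 1.18 and 1.15, and ERG13, HMG-CoA synthase, which supplies Hmg1 and Hmg2, fell by 0.99, 1.06 and 1.18. The 1 that rose was ERG28, a scaffold of the demethylation complex that holds Erg25, at 0.86, 0.54 and 0.57. Its kit calls were lost in some fits with 1 replicate left out. With RNeasy the value was 0.51 (adjusted p = 0.0168) without replicate 1 and 0.35 (adjusted p = 0.0185) without replicate 4. With Direct-zol it was 0.56 (adjusted p = 0.0118) without replicate 2. Unscaled, 10, 9 and 9 of the 14 were called lower and 1 higher.

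By method, 8 of these 14 were higher and 1 lower with Phenol than with RNeasy in unstressed cells, and 7 higher and 3 lower than with Direct-zol. Of all transcripts, 22.1% were called higher and 19.8% lower against RNeasy, and 22.9% and 21.6% against Direct-zol. NCP1 differed most, by 1.28 and 0.81, followed by ERG4, which makes ergosterol itself in the last step, by 0.92 and 0.71. The isoprenoid enzyme IDI1 was lower with Phenol, at -0.42 and -0.45, and ERG20, farnesyl pyrophosphate synthase, was lower than with Direct-zol at -0.32 and not called against RNeasy at -0.11, as was ERG8, phosphomevalonate kinase, at -0.24 and -0.07. In heat-shocked cells 9 were higher and 1 lower against each kit, beside 22.6% and 21.1% of all transcripts against RNeasy and 21.8% and 20.8% against Direct-zol. With deposited TPM, where the median of all transcripts was -0.28 and -0.11, 6 were higher and 4 lower against each kit in unstressed cells, and after heat shock 6 higher and 4 lower against RNeasy and 4 higher and 4 lower against Direct-zol. Between the kits, 2 of the 14 were called in unstressed cells, both lower with RNeasy, and 0 after heat shock. Of all transcripts, 3.89% and 4.43% were called there in either direction.

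**Figure D5:**
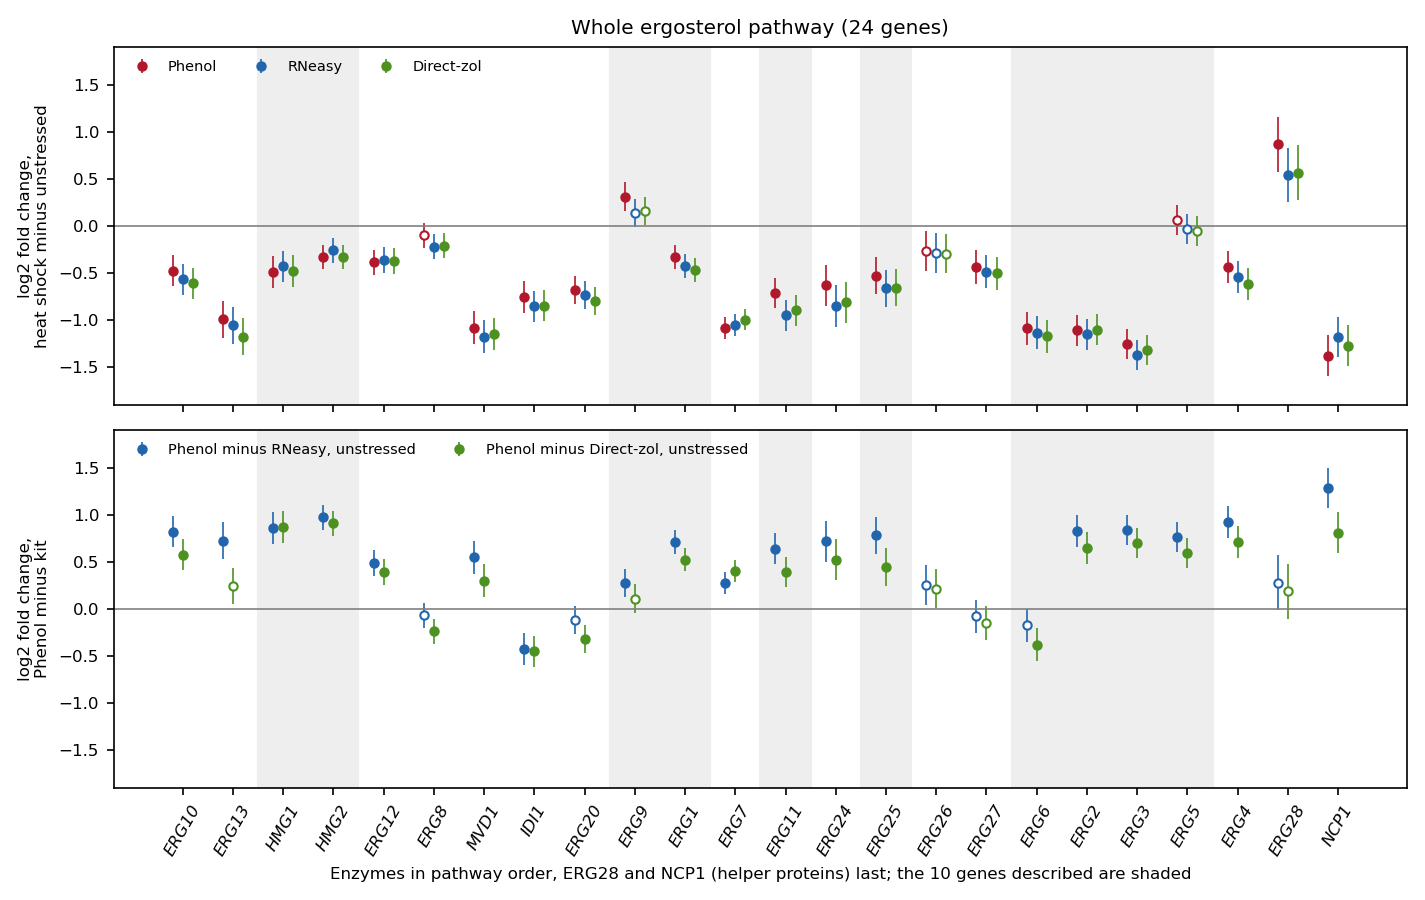
log2 fold changes (vertical axes, with 95% intervals) of 24 pathway genes in pathway order, after heat shock with each method (upper) and between Phenol and each kit in unstressed cells (lower). Filled points were called at an adjusted p under 0.01 and shading marks the 10 genes described: most of the pathway lies below 0 in heat, with ERG28 at 0.86, 0.54 and 0.57, and NCP1 reaches 1.28 for Phenol against RNeasy.

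A feature of the proteins that the choice of genes did not use is how many hydrophobic stretches they hold, counted as windows of 19 residues with a mean hydropathy of at least 1.6 that do not overlap. Hmg1 and Hmg2 have 7 each, Erg9 has 3, Erg1 and Erg2 have 2, Erg11, Erg3 and Erg5 have 1, and Erg25 and Erg6 have 0, where 29.9% of all annotated ORFs have any. ERG25, with 0, was higher with Phenol than with both kits, and ERG9, with 3, differed by 0.28 from RNeasy and by 0.11 from Direct-zol in unstressed cells. Over the 24 pathway genes, 14 have at least 1 window, and 12 of these were higher and 0 lower with Phenol than with RNeasy in unstressed cells, with a median of 0.71. Of the 10 without a window 5 were higher and 1 lower, with a median of 0.26. Over all transcripts 22.1% were called higher and 19.8% lower. NCP1, described above, is among the 10 without a window, and its 1.285 was the largest difference from RNeasy in the pathway. Against Direct-zol the counts were 11 higher and 1 lower of 14 (median 0.52), and 4 higher and 3 lower of 10 (median 0.23). There 22.9% of all transcripts were called higher and 21.6% lower. The share called among all ORFs that have a window was not counted. A window was not checked to be a membrane segment, and the mevalonate enzymes ERG8 and MVD1 have 1 each. The split is therefore not one of membrane against soluble proteins. These are counts in a small list, without a test.

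Genes that act on the pathway moved in both directions in heat shock. Of 10 regulators, 5 rose and 2 fell with Phenol, 6 and 2 with RNeasy, and 6 and 1 with Direct-zol, beside 31.1% to 31.7% of all transcripts called higher and 32.1% to 32.8% lower. Unscaled, 6 rose and 1 fell with each method. NSG2 and NSG1, relatives of the mammalian INSIG proteins that stabilise Hmg2, moved apart, with NSG2 at 1.2975, 1.09 and 1.13 and NSG1 at -0.90, -0.82 and -0.999. HRD1, the ubiquitin ligase that turns Hmg2 over, rose by 0.55, 0.57 and 0.55, and DAP1, a heme-binding partner of Erg11, by 0.76, 0.81 and 0.69. The activator UPC2 was at -0.17, -0.24 and -0.16 and was called lower with RNeasy alone (adjusted p = 0.00597), a call that was lost without replicate 1, at -0.20 (adjusted p = 0.052), without replicate 3, at -0.23 (adjusted p = 0.0252), and without replicate 4, at -0.21 (adjusted p = 0.048), and on TPM as deposited the value was 0.02. Its partner ECM22 was called lower with Phenol alone, at -0.31 (adjusted p = 0.00323), and lost the call without replicate 2, at -0.27 (adjusted p = 0.0444), and without replicate 4, at -0.29 (adjusted p = 0.0361).

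Of 7 genes of sterol storage and uptake, 3 rose and 2 fell with each method, beside the same 31.1% to 31.7% of all transcripts called higher and 32.1% to 32.8% lower. Unscaled, 5 were called higher with each method and 2, 1 and 1 lower with Phenol, RNeasy and Direct-zol. ARE2, the main enzyme that esterifies sterols, rose by 1.44, 1.32 and 1.35, while its sister ARE1 was at 0.06, 0.16 and 0.17 and was not called. The steryl ester hydrolase TGL1 rose by 0.45, 0.71 and 0.73, and its Phenol call was lost without replicate 1, at 0.34 (adjusted p = 0.0389). Of the sterol importers, PDR11 rose by 1.01, 0.86 and 0.68, which with the kits was not called with quantile normalization (0.29 and 0.19), and AUS1 fell by 0.49, 0.44 and 0.55. In unstressed cells 5 and 6 of the 7 were higher with Phenol than with RNeasy and Direct-zol and 0 were lower, beside 22.1% and 22.9% of all transcripts called higher. The 6 against Direct-zol became 3 unscaled, 3 in a fit of only the groups compared, 4 without replicate 1, 2 or 3, and 5 without replicate 4.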

How the data were processed

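PolyA-selected RNA was sequenced from 24 libraries in a single batch and on a single lane. Per the sources used here, the authors trimmed reads with Trimmomatic, aligned them with STAR to sacCer3 (R64) and estimated abundance with RSEM. The authors deposited TPM per transcript, which sum to the same total in every library, are not scaled between libraries and hold no depth. A second deposited table holds the authors' own comparisons of methods and treatments by edgeR (fold changes with their p-values), and was not used.

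To scale libraries, the log ratios of each to the mean library were averaged after trimming, and its TPM were divided by the result (30% of ratios and 5% of means trimmed at each end). Transcripts with a mean of at least 1 TPM in some sample type were tested (6137 of 6685). limma 3.58.1 (R 4.3.3) was fitted to log2(scaled TPM + 1) with the 6 sample types and the replicate as factors (15 residual degrees of freedom), a trend in the moderation, and Benjamini-Hochberg adjustment over all transcripts, at a threshold of 0.01. A fold change on this scale understates changes of low transcripts. The steps were tested on simulated data with independent errors and a replicate effect shared by number across both treatments. No effect shared only by the splits of a culture within a treatment was simulated. The simulation therefore cannot show whether the adjusted p of a heat response is too small. The replicate term follows the study's design. Numbers come from the labels. By the paper's methods the heat-shocked samples came from what was left of the sampled cultures. The same number was therefore taken to mark the same culture in both treatments. The deviations of same-numbered libraries from their group means correlated by 0.192 on average within a treatment (24 pairs) and by 0.00661 across treatments (36 pairs), against -0.0634 for different numbers within a treatment (72 pairs).

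The 10 genes were given by name, and all 10 are described. The other lists (14 pathway genes, 10 regulators, 7 genes of storage and uptake) came from general knowledge, and members and lists were chosen with earlier results of these data known. Sequences and positions were read from the RefSeq copy of the S288c genome, build R64, in which 6006 of the 6685 names were found, with Python 3.11.15 and Biopython 1.88. Alternatives were other scalings (TPM as deposited, quantile, median of ratios), pseudocounts of 0.1 and 5, no filter, no replicate block, a replicate block within treatment, only the groups compared, no trend, and each replicate left out.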

Additional observations from a re-analysis of the deposited data

Results flagged for a closer look

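In each of 60 groups of 4 libraries (10 genes in 6 sample types) the highest and the lowest library were compared with the nearest other by Dixon's ratio, and 4 stood out at its 95% critical value. Chance alone gives about 1 in 20. ERG9 in Direct-zol replicate 3 after heat shock was at 204 scaled TPM, below the others at 223 to 226. ERG1 in Direct-zol replicate 3 unstressed was at 260.0, below the others at 275 to 278. ERG11 in Direct-zol replicate 1 unstressed was at 442, above the others at 411 to 416. ERG5 in RNeasy replicate 4 unstressed was at 69.0, below the others at 77.7 to 79.3.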

How the results depend on the processing

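The number of members called was within 1.5 times of the value given for the 3 heat responses and the 4 comparisons of Phenol with a kit under every alternative run. With no replicate block none of the member calls changed. Between the kits, the count of 0 became 1 in unstressed and 1 in heat-shocked cells with the replicate block within treatment, and 2 in unstressed cells in a fit of only the groups compared. Of the 14 other pathway genes, 2 were called between the kits in unstressed cells, beside 3.89% of all transcripts. That count became 1 on TPM as deposited, 1 with quantile normalization, and 0 to 1 with 1 replicate left out. In heat-shocked cells the count of 0 became 1 with the block within treatment and 1 with only the groups compared. The block within treatment was not run for the heat responses, since it removes the differences between cultures of a treatment that are the error of that comparison.

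Values that changed sign were near 0 or moved with the scaling. When TPM were left as deposited, ERG5 was at 0.23 (RNeasy) and 0.25 (Direct-zol) in heat and ERG9 at -0.016 for Phenol vs. RNeasy unstressed. For RNeasy vs. Direct-zol, HMG2 was then at 0.13, ERG9 at 0.032, ERG1 at 0.018, ERG2 at 0.020, ERG3 at 0.065 and ERG5 at 0.032 unstressed, and ERG1 at 0.022 and ERG5 at 0.015 after heat shock. With quantile normalization ERG25 was at 0.0285 with Phenol and ERG5 at 0.034 (RNeasy) and 0.0073 (Direct-zol) in heat, and between the kits HMG1 was at -0.0058, ERG2 at 0.0003 and ERG3 at 0.035 unstressed and HMG2 at -0.027 after heat shock. With the median of ratios HMG2 was at -0.0047 there. With 1 replicate left out, ERG5 in heat with Phenol ran from -0.026 to 0.17, HMG1 between the unstressed kits from -0.032 to 0.046, and HMG2 between the heat-shocked kits from -0.028 to 0.0355. The cause was not tested.

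In the fits of only the groups compared, with fewer libraries, the heat calls of ERG9, ERG1 and ERG25 with Phenol, HMG2 with RNeasy and HMG1 with Direct-zol were lost. Of the refitted member values, 1156 kept their direction and their side of the threshold, 38 lost a call and 14 gained one with the same sign, and 22 changed sign, of which 2 also lost a call and 2 gained one.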
